A study of Mus musculus with 8 samples.

Results

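Sphingosine 1-phosphate (S1P) is a signalling lipid made inside cells from sphingosine and read outside them by cell surface receptors. The 9 genes described here were the acid ceramidase gene Asah1, the sphingosine kinase genes Sphk1 and Sphk2, the S1P lyase gene Sgpl1, the S1P phosphatase gene Sgpp1, the S1P exporter gene Spns2 and the receptor genes S1pr1, S1pr2 and S1pr3. They were taken by name from 35087 named genes in each library, and all 9 passed the filter on low counts that left 15102 genes. Sphk1 was picked because it was higher in the knockout libraries of this same comparison, so its values are a description and no test of it is given. The other 8 genes were chosen around it by function, with results of these data known.

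Ceramidases free sphingosine from ceramide, and both sphingosine kinases add a phosphate to it to give S1P. S1P is then cleaved for good by the lyase, turned back to sphingosine by phosphatases, or exported to act on G protein-coupled receptors. The balance of ceramide and S1P is widely studied in cell survival, and in the ovary S1P is known as an agent that protects follicles and oocytes against damage from radiation and chemotherapy. Endothelial cells and red blood cells are major sources of the S1P in blood.

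The RNA came from mouse ovarian granulosa cells, the somatic cells around the oocyte, cut by laser from sections of ovarian follicles. The knockout group (cKO, n = 2 libraries) was Hif1aflox/flox; Foxl2-CreERT2, in which a tamoxifen-inducible Cre recombinase made from the granulosa cell gene Foxl2 can cut out floxed Hif1a, and the group labelled WT (n = 6 libraries) was Hif1aflox/flox without Cre. Both groups received tamoxifen, 100 mg/kg each day on 5 days, beginning at an age of 3 weeks, and the ovaries were collected once 7 further days had passed. Hif1a encodes the subunit of the transcription factor HIF1 whose stability depends on oxygen. As Cre was present in one group alone, an effect of the loss of Hif1a and an effect of Cre itself cannot be told apart. The genotype label calls the cKO libraries a knockdown, and the library names of all 8 samples begin with cKO, also those of the WT group, so groups follow the titles. Which animal or follicle stage each library came from is not stated in the labels, so p-values measure the spread between these libraries, which may be technical, and are too small if libraries share an animal.

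Libraries held 2054584 and 651426 reads on named genes in cKO and from 1594803 to 4719293 in WT. Hif1a had 22.2 and 13.6 CPM (read counts scaled to depth with TMM factors) in the cKO libraries, and 35.3 to 105.6 CPM in WT with a median of 59.3 CPM. The groups did not overlap (log2 fold change -1.84 ± 0.58, SE, edgeR adjusted p = 0.369). Within WT, Hif1a was lowest in replicates 1 and 2 (37.7 and 35.3 CPM), with at least 49.3 CPM in replicates 3 to 6. All 12 granulosa marker genes had more than 3 reads in every library. Their summed share of reads was 0.556% and 0.237% in cKO, and 0.458% and 0.816% in WT replicates 1 and 2. It was from 2.50% to 6.01% in WT replicates 3 to 6, which stand apart from the rest. Inha, the most abundant of these markers, was also highest in WT replicates 3 to 6, at 10520 CPM or more. Amh alone was lower in WT replicates 3 to 6 (at most 175 CPM) than in every other library (at least 223 CPM). The share of reads on the mitochondrial genome did not overlap (from 8.87% to 10.5% in cKO, from 1.42% to 3.65% in WT), and neither did the number of genes with at least 5 reads (12120 and 12847 in cKO, from 13597 to 14727 in WT). Each of the last 2 measures gave an exact two-sided permutation p = 0.0357, the smallest that 28 splits of 8 libraries allow.

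Start sites of 7 of the 9 genes were matched in the RefSeq promoter table, 12 in all, of which 5 are of Sphk1. Stretches before a start site of the 2 genes with the highest fitted fold change among the 9 are shown because Hif1a encodes a subunit of a factor that binds DNA at the core letters ACGTG or GCGTG. Capitals mark these letters on either strand (CACGT and CACGC on the other strand), and each stretch is the 250 bases before a RefSeq start site on GRCm38.p6, read 5′ to 3′ along the gene. The Sphk1 stretch is chr11:116532194-116532443 (plus strand) and the Spns2 stretch is chr11:72475028-72475277 (minus strand). These were the windows of each gene that hold no base of an annotated exon. Both lie inside the annotated span of their gene, downstream of its 5′ end.
Sphk1: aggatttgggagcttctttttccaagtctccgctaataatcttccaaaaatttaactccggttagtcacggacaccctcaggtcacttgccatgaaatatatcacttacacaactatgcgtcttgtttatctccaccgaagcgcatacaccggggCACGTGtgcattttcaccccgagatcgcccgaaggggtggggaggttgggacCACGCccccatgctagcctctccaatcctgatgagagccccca
Spns2: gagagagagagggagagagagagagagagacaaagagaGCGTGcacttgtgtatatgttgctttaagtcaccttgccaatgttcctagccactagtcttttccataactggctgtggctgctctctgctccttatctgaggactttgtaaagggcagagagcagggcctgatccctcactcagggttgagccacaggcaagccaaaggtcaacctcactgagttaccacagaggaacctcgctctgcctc
The Sphk1 stretch held 3 matches, of which 2 are the palindrome CACGTG read on both strands, and the Spns2 stretch held 1. The stretches before the other Sphk1 start sites held from 0 to 3 matches. Among them, CACGTG was found only in the one that overlaps the stretch shown. Which start site was used in these libraries was not tested. Of 32851 such stretches in the RefSeq table, 38.6% held either core and 6.02% held CACGTG. The letters are a description of these windows and show no binding.

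Among the kinases, Sphk1 was the gene with reads in cKO and hardly any in WT. It lies on chromosome 11, 116530925 to 116536674, plus strand (GRCm38, GENCODE M21). The cKO replicates 1 and 2 held 58 and 13 Sphk1 reads, and WT replicates 1 to 6 held 3, 2, 2, 2, 12 and 0 reads. On the depth-scaled level this was 29.3 and 17.7 CPM in cKO, and 1.64, 0.54, 0.78, 0.48, 2.70 and 0 CPM in WT replicates 1 to 6. Both cKO libraries lay above every WT library, and 5 of 6 WT libraries held 3 reads or fewer. The lower cKO library, replicate 2, was also the shallowest. Counting error alone gave exact 95% intervals (Clopper-Pearson) of 22.2 to 37.8 CPM for cKO replicate 1, 9.40 to 30.2 CPM for cKO replicate 2 and 1.40 to 4.72 CPM for WT replicate 5, which describe the precision of each library and test nothing between the groups. In WT replicate 6, with 0 reads, 3 reads would be 0.651 CPM.

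Sphk1 averaged 23.5 ± 8.21 CPM over the cKO libraries and 1.02 ± 0.983 CPM over the WT libraries (SD, n = 2 and n = 6), and the fitted log2 fold change was 4.49. That value ranked 27 of 15102 genes from the highest, which is what led to the choice of Sphk1. Sphk1 entered these 15102 genes only through its cKO libraries, as its WT reads alone were too few for the filter on low counts. Leaving out cKO replicate 1 gave 4.07 and leaving out cKO replicate 2 gave 4.73. It was 5.20 without WT replicate 5, which holds 12 of the 21 WT reads. Among the libraries numbered 1 and 2 of both groups, so without WT replicates 3 to 6, it was 4.48. Sphk1 shares 192 exon bases with Gm29292, an antisense gene on the minus strand, and the library method does not mark strand, so reads within those bases cannot be told apart.

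Markers of cell types other than granulosa cells were compared beside this result. Of 8 macrophage and leukocyte markers, 6 and 4 had more than 3 reads in cKO replicates 1 and 2 and from 1 to 6 did in WT. Their summed share was 0.00545% and 0.00384% of reads in cKO and from 0.000254% to 0.00370% in WT, with no overlap (exact two-sided permutation p = 0.0357). This is the smallest p that 28 splits allow, and 7 marker lists were tested without adjustment. Only Lyz2 was by itself higher in both cKO libraries than in all WT libraries. C1qb had at most 1.36 CPM in cKO and up to 11.5 CPM in WT. The shares of 12 endothelial markers (0.0482% and 0.0411% in cKO, from 0.0105% to 0.0701% in WT) and of 5 red blood cell markers (0.0402% and 0.00645% in cKO, from 0.00431% to 0.0330% in WT) gave p = 0.393 and p = 0.607 in the same exact permutation test. Stroma and smooth muscle markers took 0.186% and 0.0528% of reads in cKO and from 0.00249% to 0.168% in WT (exact permutation p = 0.5). Theca markers took 0.0812% and 0.0312% in cKO and from 0.0394% to 1.15% in WT (exact permutation p = 0.25). The most abundant theca marker was Hsd3b1, with 613 and 201 CPM in cKO and from 275 to 12691 CPM in WT. Cyp17a1 had 81.3 and 13.6 CPM in cKO and from 0 to 170 CPM in WT. Oocyte markers took 0.00823% and 0.00445% in cKO and from 0.000823% to 0.182% in WT (exact permutation p = 0.607). Of all these markers, Dppa3, an oocyte gene, was the one with no read in either cKO library. The part of these cells, of mitochondrial reads and of detected genes in the level of Sphk1 was not tested. In tissue samples, more cells of a type and more RNA per cell cannot be told apart.

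**Figure D1:**
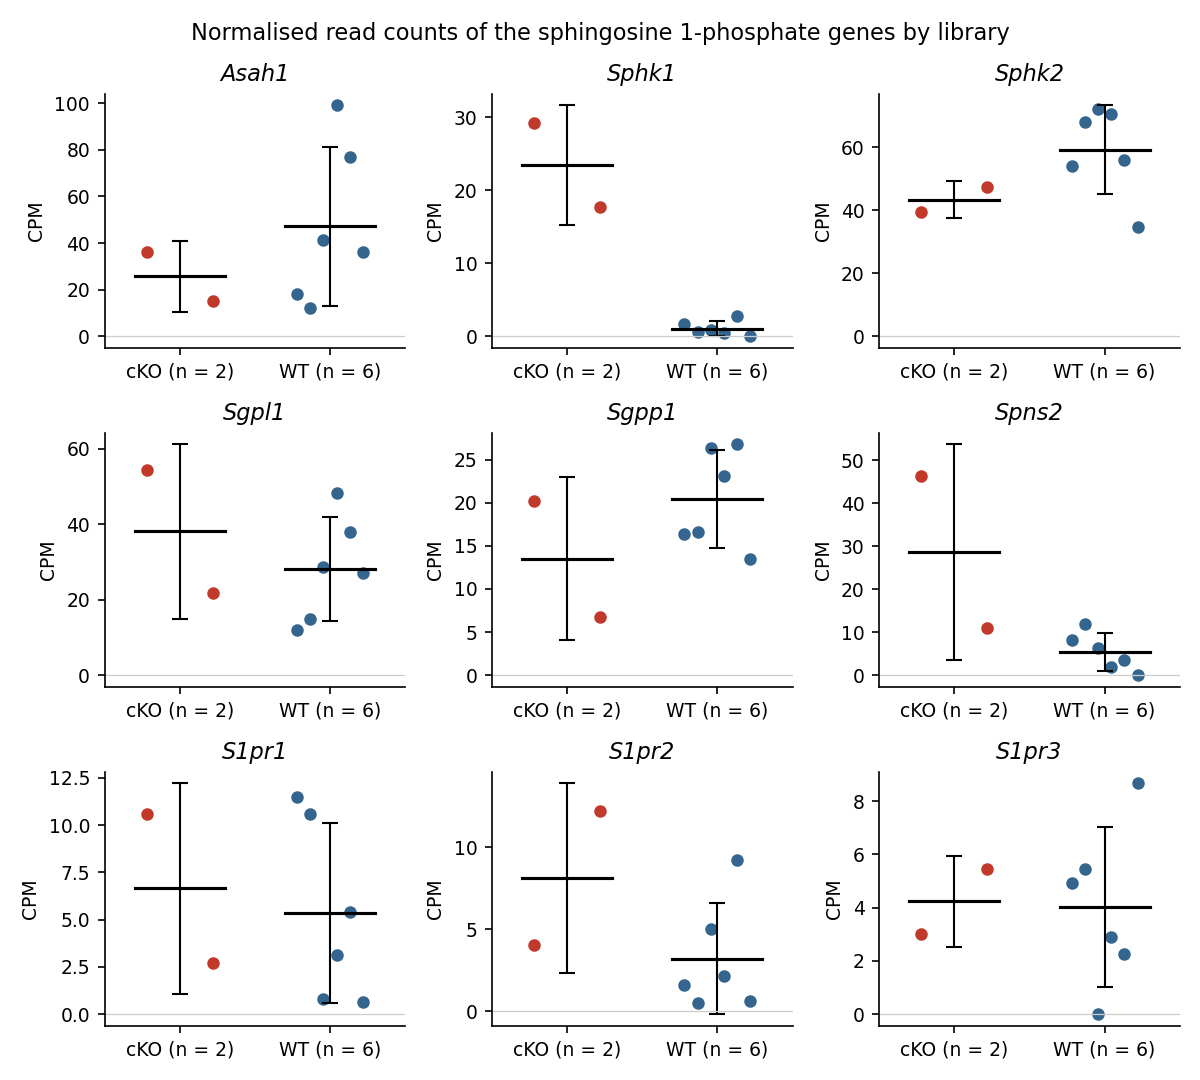
Normalised read counts (CPM after TMM, linear axes) of the 9 genes in 2 cKO and 6 WT libraries. Points are libraries in replicate order from left to right, black lines are means and bars are ± 1 SD; Sphk1 at 29.3 and 17.7 CPM in cKO lies apart from at most 2.70 CPM in WT, while the groups overlap in the other 8 genes.

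Sphk2, the other sphingosine kinase gene, is the one found in the nucleus and mitochondria as well as the cytoplasm. It had 39.4 and 47.5 CPM in cKO and from 34.7 to 72.1 CPM in WT with a median of 62.0 CPM. The cKO libraries lay inside the WT range, between WT replicate 6 and WT replicate 1. The mean level was 43.5 ± 5.79 CPM over the cKO libraries and 59.3 ± 14.2 CPM over the WT libraries (SD, n = 2 and n = 6), with a fitted log2 fold change of -0.45 ± 0.43 (SE; by edgeR, adjusted p = 0.671). Sphk2 (chromosome 7, 45709467 to 45718002, minus strand) shares 373 exon bases with the abundant ribosomal protein gene Rpl18 and 539 with Dbp, both on the opposite strand, so its level is uncertain. Rpl18 had 2115 and 461 CPM in cKO and from 1235 to 3284 CPM in WT.

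Per transcript length, Sphk2 was the kinase gene read in WT and both kinase genes were read in cKO. In the deposited TPM, Sphk1 made up 61.8% and 46.9% of the sum of both kinase genes in cKO replicates 1 and 2, and 2.43%, 1.67%, 0.885%, 0.482%, 6.33% and 0% in WT replicates 1 to 6. The sum itself was 23.5 and 38.4 TPM in cKO and from 11.3 to 25.7 TPM in WT, so the groups overlapped in the sum. The Sphk1 lengths that reads and TPM imply were 1489 and 1010 bases in cKO and from 1339 to 3860 bases in the 5 WT libraries with reads. As a share of the CPM of both kinase genes, which takes no account of length, Sphk1 made up 42.6% and 27.1% in cKO and from 0% to 4.60% in WT. Sphk1 enters all these quantities, which are therefore descriptions as well.

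**Figure D2:**
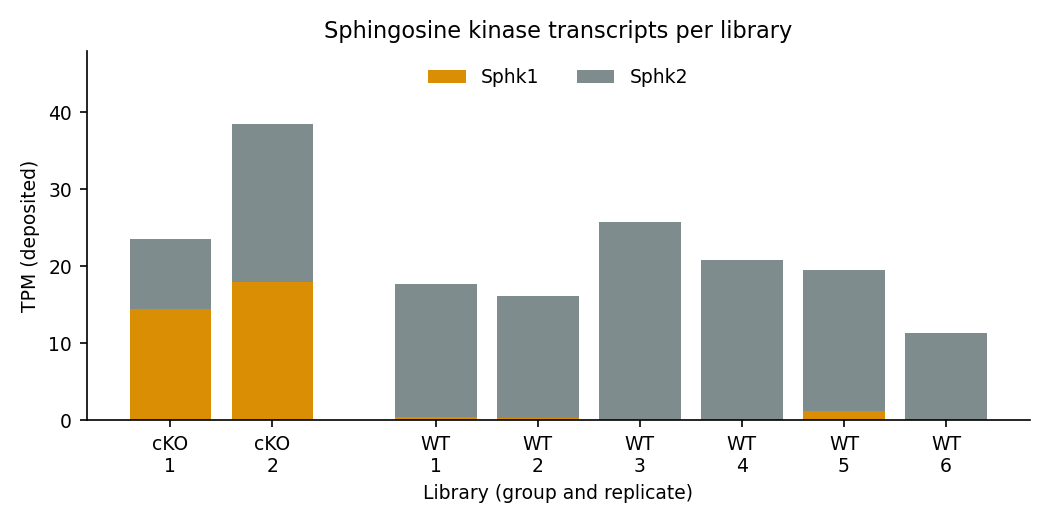
Deposited TPM of Sphk1 and Sphk2, stacked, in each library, with cKO replicates 1 and 2 on the left and WT replicates 1 to 6 on the right. Sphk1 reaches 14.5 and 18.0 TPM in cKO and at most 1.24 TPM in WT.

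Upstream of the kinases, Asah1 encodes the lysosomal ceramidase that supplies sphingosine. It had 36.3 and 14.9 CPM in cKO, against 18.0, 12.0, 41.5, 99.3, 76.8 and 36.2 CPM in WT replicates 1 to 6. Both cKO libraries lay among the WT libraries, which themselves were low in replicates 1 and 2 and higher in replicates 3 to 6. The mean level was 25.6 ± 15.1 CPM over the cKO libraries and 47.3 ± 34.2 CPM over the WT libraries (SD, n = 2 and n = 6), with a fitted log2 fold change of -0.85 ± 0.74 (SE; by edgeR, adjusted p = 0.644). Leaving out cKO replicate 1 gave -1.66 and leaving out cKO replicate 2 gave -0.46, and it turned to 0.82 among the libraries numbered 1 and 2.

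The enzymes that remove S1P were read in every library. Sgpl1, the gene of the lyase that irreversibly splits S1P in the endoplasmic reticulum, had 54.5 and 21.7 CPM in cKO and from 12.0 to 48.3 CPM in WT with a median of 27.9 CPM. The cKO replicate 1 was above all WT libraries and cKO replicate 2 was inside their range. The log2 fold change of Sgpl1 was 0.45 ± 0.58 (SE; by edgeR, adjusted p = 0.766), and it was -0.38 without cKO replicate 1 and 1.55 among the libraries numbered 1 and 2. On the deposited TPM the Sgpl1 groups did not overlap, with 18.1 and 22.4 TPM in cKO and from 4.62 to 16.2 TPM in WT (limma on log2(TPM + 1), log2 fold change 1.03, adjusted p = 0.416). The effective length that reads and TPM imply for Sgpl1 was 2220 and 951 bases in cKO replicates 1 and 2 and from 1319 to 3420 bases in WT, so the cKO library with 18.1 TPM had a length inside the WT range.

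Sgpp1, the gene of an S1P phosphatase of the endoplasmic reticulum, had 20.2 and 6.79 CPM in cKO and from 13.5 to 26.8 CPM in WT with a median of 19.8 CPM. The level in cKO replicate 2, which rests on 5 reads, was below all WT libraries, and cKO replicate 1 was inside their range. The log2 fold change was -0.55 ± 0.61 (SE; by edgeR, adjusted p = 0.723), or -1.58 without cKO replicate 1 and -0.08 without cKO replicate 2.

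Spns2 encodes the transporter through which S1P leaves endothelial and other cells. It had 92 and 8 reads in cKO replicates 1 and 2, and 15, 44, 16, 8, 16 and 0 reads in WT replicates 1 to 6. Scaled to depth this was 46.4 and 10.9 CPM in cKO, and 8.20, 12.0, 6.21, 1.92, 3.60 and 0 CPM in WT. One cKO library stood above all others, and the second lay below WT replicate 2. On the deposited TPM the Spns2 groups did not overlap, with 23.0 and 5.17 TPM in cKO and from 0 to 3.70 TPM in WT. The mean level was 28.7 ± 25.1 CPM over the cKO libraries and 5.32 ± 4.38 CPM over the WT libraries (SD, n = 2 and n = 6), with a fitted log2 fold change of 2.46 ± 1.03 (SE; by edgeR, unadjusted p = 0.0321, adjusted p = 0.380). Leaving out cKO replicate 1 gave 1.04 and leaving out cKO replicate 2 gave 3.10, and it was 1.56 among the libraries numbered 1 and 2. Spns2 (chromosome 11, 72451638 to 72489904, minus strand) shares 131 exon bases with Mybbp1a on the opposite strand, which had 554 and 344 CPM in cKO and from 132 to 626 CPM in WT.

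All 3 receptor genes were near the limit of detection in several libraries. S1pr1, whose product couples to Gi proteins and is the main S1P receptor of endothelial cells, had 10.6 and 2.72 CPM in cKO, against 11.5, 10.6, 0.78, 3.13, 5.41 and 0.65 CPM in WT replicates 1 to 6. The groups overlapped fully, and 3 of the 8 libraries held 3 reads or fewer (2 in cKO replicate 2, 2 in WT replicate 3 and 3 in WT replicate 6). The log2 fold change was 0.38 ± 1.18 (SE; by edgeR, adjusted p = 0.913), and its sign turned without cKO replicate 1 (-0.95) and among the libraries numbered 1 and 2 (-0.64).

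S1pr2 encodes a receptor that can couple to G12/13 proteins. It had 8 and 9 reads in cKO, or 4.04 and 12.2 CPM, and from 0.54 to 9.23 CPM in WT with a median of 1.90 CPM. WT replicates 3 and 5, with 13 and 41 reads, lay between the cKO libraries and the other WT libraries below both. The log2 fold change of S1pr2 was 1.29 ± 1.22 (SE; by edgeR, adjusted p = 0.668), and leaving out cKO replicate 2 gave 0.25, leaving out cKO replicate 1 gave 1.91 and leaving out WT replicate 5 gave 2.12. Among the libraries numbered 1 and 2 it was 2.89. S1pr3, a receptor gene also known from smooth muscle and stroma, had 3.03 and 5.43 CPM in cKO, from 6 and 4 reads, and from 0 to 8.68 CPM in WT with a median of 3.90 CPM. Its log2 fold change was 0.04 ± 1.36 (SE; by edgeR, adjusted p = 0.995), and both cKO libraries were inside the WT range.

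**Figure D3:**
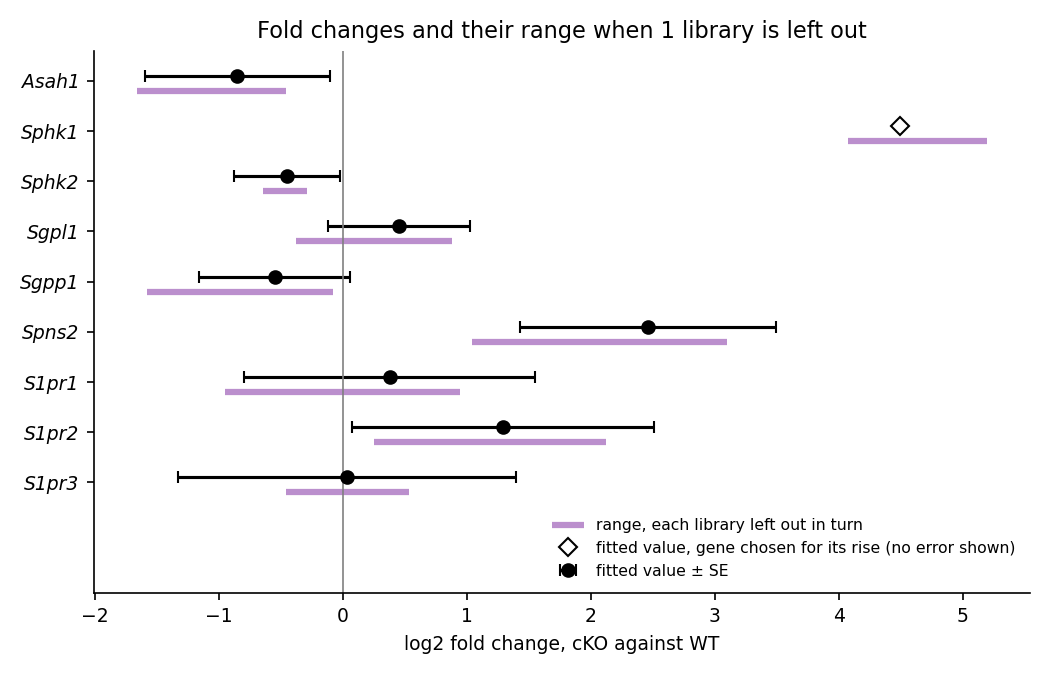
Log2 fold change of each gene, cKO against WT, from edgeR with all 8 libraries (circles with ± 1 SE; open diamond for Sphk1, which was chosen for its rise). Purple bars give the lowest and highest value when each library is left out in turn, from 4.07 to 5.20 for Sphk1 and across 0 for Sgpl1, S1pr1 and S1pr3.

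Of the 8 genes other than Sphk1, 0 passed an edgeR adjusted p under 0.05, as did 0% of all 15102 genes. At an unadjusted p under 0.05 it was 1 of 8, Spns2, while 12.3% of all genes were under it, so this count is near the background. On CPM, the groups did not overlap in 0 of these 8 genes. Over all genes, 6.02% had no overlap and were higher in cKO, and 6.41% had no overlap and were lower. On the deposited TPM, the groups did not overlap for Sgpl1 and Spns2, and the share over all genes was not counted on that scale. The median log2 fold change was 0.21 over the 8 genes, 5 positive and 3 negative, and -0.08 over all genes. DESeq2 gave an adjusted p to 3 of the 8, Asah1 (0.560), Sphk2 (0.705) and Sgpl1 (0.631). It called 274 of the 6881 genes with an adjusted p. With voom and quality weights, limma called 0 genes, and 2495 lay at an unadjusted p under 0.05.

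Ordered by mean TPM, a level per transcript length, the genes in cKO ran Sgpl1 (20.3), Sphk1 (16.3), Sphk2 (14.7), Spns2 (14.1), Asah1 (10.4), Sgpp1 (3.68), S1pr2 (2.38), S1pr1 (1.87) and S1pr3 (0.911). In WT they ran Asah1 (19.7), Sphk2 (18.2), Sgpl1 (10.1), Sgpp1 (5.88), Spns2 (2.16), S1pr1 (1.57), S1pr2 (1.32), S1pr3 (0.807) and Sphk1 (0.377). The enzymes other than Sphk1 were above the receptors in both orders by these means. Neighbours in the WT order overlapped in range at each step, so that order is not resolved library by library. In cKO the ranges did not overlap between Asah1 and Sgpp1 or, barely, between Sgpl1 (lowest 18.1 TPM) and Sphk1 (highest 18.0 TPM), with 2 libraries each, and the other neighbours overlapped.

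Other genes of sphingolipid metabolism and of S1P signalling gave 0 calls. Of 48 genes on 5 lists, 41 passed the filter, of which 16 had a positive and 25 a negative log2 fold change, with a median of -0.25. At an unadjusted p under 0.05 it was 5 of 41, all lower in cKO and none higher, where 3.4% of all genes were under that value and higher in cKO and 8.89% were under it and lower. Over all genes this split was 513 higher and 1342 lower in edgeR, and 1453 higher and 1042 lower in limma-voom with quality weights. The median was 0.53 over 6 other genes of S1P turnover, transport and receptors, 0.50 over 5 genes of other ceramidases and prosaposin, -0.80 over 13 genes of ceramide synthesis, -0.16 over 10 genes of sphingomyelin and glycosphingolipid turnover, and -0.77 over 7 G protein alpha subunits. The receptor genes S1pr4 and S1pr5 did not pass the filter. S1pr4 had 1 read in cKO and 1 in WT, and S1pr5 had 10 in cKO, all in cKO replicate 2, and 11 in WT.

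Genes with the smallest p on each list were named by rule. Psap encodes prosaposin, the precursor of the saposins that help lysosomal sphingolipid enzymes, acid ceramidase among them. It had 111.5 and 50.3 CPM in cKO and from 123.5 to 241.4 CPM in WT (log2 fold change -1.16 ± 0.47, SE, edgeR adjusted p = 0.378). The groups did not overlap for Psap. Smpd4, a neutral sphingomyelinase gene, lay the other way with no overlap, at 172.1 and 160.3 CPM in cKO and from 59.4 to 126.1 CPM in WT (log2 fold change 0.88 ± 0.41, SE, edgeR adjusted p = 0.409).

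The ceramide synthase gene Cers6 had 12.6 and 5.43 CPM in cKO and from 9.84 to 74.2 CPM in WT (log2 fold change -1.97 ± 0.75, SE, edgeR adjusted p = 0.374). Ormdl1, a regulator of serine palmitoyltransferase, had 1 read in the cKO libraries together and 256 in WT, with as little as 0.54 CPM in WT replicate 2. Plpp1, a lipid phosphate phosphatase gene that can act on S1P outside the cell, had 0 reads in cKO and also in WT replicates 3 and 6, with up to 25.4 CPM in WT. The limits of 3 reads in the cKO libraries average 2.79 CPM, against a WT mean of 7.09 CPM. Set at these limits, the cKO mean would be 2.54-fold lower. This bound takes no account of the spread between libraries (edgeR adjusted p = 0.407 for Plpp1). WT replicate 5 holds 113 of the 174 WT reads, and without it the bound was 1.22-fold. Aldh3a2, the dehydrogenase gene that clears the aldehyde made by the lyase, had a log2 fold change of -1.07 ± 0.69, and Acer2, the Golgi ceramidase gene, 0.82 ± 0.68 (SE; by edgeR, adjusted p = 0.532 and 0.620). Of the receptor-coupled subunits, Gna13, which S1P receptor 2 uses, had 18.2 and 28.5 CPM in cKO and from 11.5 to 100.5 CPM in WT (-1.64 ± 0.74, adjusted p = 0.397), and Gnai3 had -1.48 ± 0.78 (edgeR adjusted p = 0.447). For Gna13, WT replicates 1 and 2 were low (11.5 and 32.6 CPM) and lay on either side of both cKO libraries. WT replicates 3 to 6 reached at least 88.8 CPM. Gnai3 (9.84 and 14.4, then at least 32.6 CPM) and Aldh3a2 (13.1 and 29.6, then at least 34.1 CPM) split likewise. Cers6 and Plpp1 did not. The fold changes of Gna13, Gnai3 and Aldh3a2 thus also carry a split within WT, whose cause was not tested. None of the differences named for list genes passed the adjusted threshold.

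**Figure D4:**
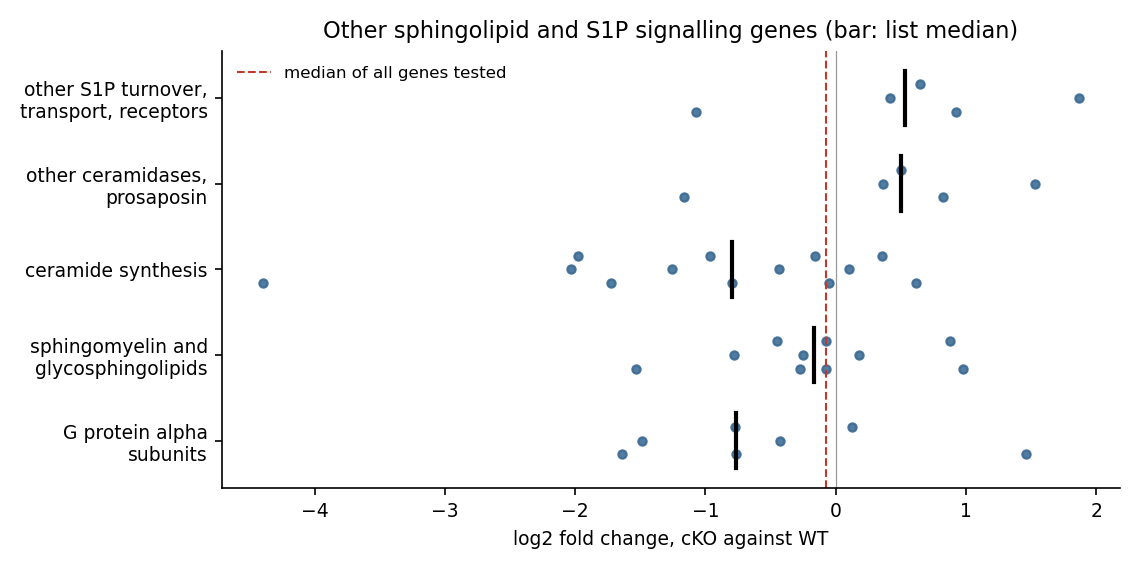
Log2 fold changes, cKO against WT, of the genes of 5 sphingolipid and S1P signalling lists that passed the filter. Each point is a gene, black bars are list medians from -0.80 to 0.53, and the dashed line is the median of all genes at -0.08; Plpp1, with 0 reads in cKO, enters its list median but has no point.

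Across the 8 libraries, the genes whose pattern was most like that of Sphk1 were Ddhd1, a phospholipase gene (Pearson r = 0.98 on log2(CPM + 1)), the cardiac myosin gene Myh6 (0.97), Zc3h7a (0.94), Fgd5, a guanine nucleotide exchange factor gene known from endothelial cells (0.94), and Ncbp3 (0.93), out of 9646 genes with a mean of at least 10 CPM. Their size of difference varied widely. Ddhd1 had 155.4 and 137.2 CPM in cKO and from 86.8 to 106.0 CPM in WT, while Fgd5 had 67.1 and 24.5 CPM in cKO and from 0 to 12.0 CPM in WT. Within the 9 genes, Spns2 was most like Sphk1 (r = 0.76), and Asah1 and Sgpl1 were the most alike pair (r = 0.80). These likenesses are descriptions over 8 libraries that share group and depth.

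The nearest genes of the other members came from the same search. They were Kctd5 (0.97) and H2-K1 (0.96) for Asah1, Qpctl (0.97) and Twf2 (0.94) for Sphk2, Pdcd2 and Tcaf1 (0.97 each) for Sgpl1, and Il11ra1 (0.99) and Gm2a (0.98) for Sgpp1. For Spns2 it was Tgs1 (0.99). The receptor genes lay nearest to Myom1 (0.95) and Tspan5 (0.94) for S1pr1, Zfp974 (0.92) and Rcsd1 (0.91) for S1pr2, and Rab27b (0.97) and Tiam1 (0.95) for S1pr3. Of these, Gm2a encodes the lysosomal GM2 activator, a cofactor of glycosphingolipid breakdown.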

How the data were processed

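Each library had 1 deposited table with estimated counts of reads, TPM and transcript lengths per row, which the authors made with HISAT2 and Salmon on mm10, per the submitters' processing notes; versions and annotation are not given in the sources used here. RNA was amplified with a Smart-seq2 protocol and tagged with Tn5, per the labels' protocols, so strand is not marked and molecules are not counted. Of 36635 rows, 1548 carry a transcript identifier only and were not used; they took 0.435% to 0.739% of reads.

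The deposited TPM values are scaled per transcript length and library and were used for levels between genes. The deposited lengths were not used, since Sphk1 has 94.9 bases in cKO replicate 2 while its shortest annotated transcript has 522; effective lengths were taken from reads over TPM.

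Estimated counts were rounded, filtered (filterByExpr, minimum count 10, total 15), scaled by TMM and tested by the quasi-likelihood method of edgeR 4.0.16 in R 4.3.3 (glmQLFit, glmQLFTest) with all 8 libraries and no covariate, with Benjamini-Hochberg adjustment over 15102 genes and a threshold of 0.05. CPM use TMM library sizes. Log2 fold changes are cKO over WT, and the SE comes from the F statistic. The fit was tested on simulated counts. Limits of 3 reads range from 0.651 to 4.08 CPM per library and, like the intervals, reflect counting error alone. No libraries of the same group agreed within sampling noise (chi-square per degree of freedom at least 13).

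The members, gene lists and tests were chosen with earlier results of these data known. Named genes were all 9 members and Hif1a, the 2 genes with the smallest p on each list, genes that overlap a member, and the 5 genes nearest to Sphk1 or 2 nearest to each other member by Pearson correlation, without Gm and Rik names. A gene of the lists and a nearest gene that this rule named are not reported here. S1pr4 and S1pr5, the single marker genes named, Dppa3 among them, and the likeness of members among themselves were chosen after their values were seen. Alternatives were DESeq2's size factors, no filter, 10 reads in 6 libraries, DESeq2 1.42.0, limma 3.58.1 (voom with quality weights, and log2 of TPM plus 1 or 0.1), a replicate block, the libraries numbered 1 and 2, detected genes (5 reads) as a covariate, and leaving out each library. The Plpp1 bound without each WT library and the kinase share on CPM were added after seeing the data.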

Additional observations from a re-analysis of the deposited data

Results flagged for a closer look

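Among 18 measures looked at in the 6 WT libraries (the CPM of the 9 genes, 7 marker shares, the mitochondrial share and the number of detected genes), 2 held a library far from the others by Dixon's criterion, which chance alone meets in about 1 of 20 groups. Endothelial markers took 0.0701% of reads in WT replicate 1 and from 0.0105% to 0.0305% in the other WT libraries. S1pr1, a receptor gene of endothelial cells, had 11.5 CPM in WT replicate 1. It had nearly as much, 10.6 CPM, in WT replicate 2, where endothelial markers took 0.0118% of reads. Oocyte markers took 0.182% of reads in WT replicate 6 and from 0.000823% to 0.0446% in the others, and that library held 0 reads of Sphk1 and of Spns2. The part of either in those levels was not tested.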

How the results depend on the processing

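Sphk1 was picked for its rise and both cKO libraries lay above every WT library, so its sign could hardly turn. The fitted log2 fold change of Sphk1 was positive under every alternative that kept the gene. It was 3.69 on log2(TPM + 1), 5.55 on log2(TPM + 0.1) and 7.37 with detected genes as a covariate, and from 4.07 to 5.20 with 1 library left out; the filter of 10 reads in 6 libraries removed Sphk1, Spns2 and the 3 receptor genes. None of the other 8 genes and no gene of the 5 lists was called under any alternative. DESeq2 gave no adjusted p to Sgpp1, Spns2, the receptor genes and list genes such as Ormdl1 and Plpp1, so it could not call them. The count over all genes was 478 without a filter and 274 in DESeq2, where 6881 genes had an adjusted p. It was 5 and 12 on log2(TPM + 1) and log2(TPM + 0.1), 1 with the replicate block and 0 in the rest. The cause of these differences was not tested.

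Signs turned for Asah1 (0.69 with the replicate block, 0.82 in the libraries numbered 1 and 2, 1.62 with detected genes as a covariate), S1pr1 (-0.93 and -0.64 under the first 2), S1pr3 (-0.35, -0.27 and -1.30 under the same 3) and Sgpp1 (0.42 with detected genes). With 1 library left out, values ran from -0.38 to 0.88 for Sgpl1, from -0.95 to 0.95 for S1pr1 and from -0.46 to 0.53 for S1pr3. The numbers 1 and 2 occur in both groups, and same-numbered libraries did not deviate together (correlation -0.30 and -0.17). With 2 cKO libraries, the deviations of one mirror those of the other, so a pairing cannot be judged from these values. Over all genes the median log2 fold change was -0.08 under TMM scaling and 0.05 under the size factors of DESeq2.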
